A study of Mus musculus with 2 samples.

Results

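A set of 10 genes of the heat shock system were followed in mouse embryonic stem cells after knockdown of the long noncoding RNA LincU: Hspa1a, Hspa1b, Hspa8, Hsph1, Hsp90aa1, Hsp90ab1, Hspb1, Hspd1, Hspe1 and Hsf1. They were chosen by the gene name that the array gives to its non-control probes, which found 20 probes of 56605; the array names 37008 genes in all. The cells were of the line 46C, kept in serum and LIF on a feeder layer, which was taken off before harvest. One array was hybridised with RNA of cells labelled shCtrl, a control short hairpin, and 1 with RNA of cells labelled shLincU, a hairpin against LincU. The control carries WT in its title and shCtrl as its genotype, and is called shCtrl here. No probe was matched to LincU by name, and the knockdown itself was not checked here. The study's title places LincU upstream of ERK activity in naive pluripotency. The labels name no heat treatment.

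Heat shock proteins are chaperones that bind unfolded or partly folded proteins, keep them from aggregating and help them to fold. HSP70 and HSP90 work in the cytosol with co-chaperones, HSP60 and HSP10 form a folding chamber in mitochondria, and small heat shock proteins hold unfolded clients. On stress the transcription factor HSF1 forms trimers, binds heat shock elements in promoters and raises the inducible members, while other members are made at high levels in growing cells without stress.

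Signals are processed intensities of the scanner software, in arbitrary units. Levels are log2 of that intensity relative to the 75th percentile of the same array, 626 units for shCtrl and 420 for shLincU. Differences are log2 of shLincU over shCtrl after that scaling, so "higher" and "lower" describe shLincU against the bulk of genes. Scaled instead to 8 E1A spike-in controls, every gene shifts by -0.89, and all 10 genes are then below 0. With 1 array per group there was no replicate check and no test, and the number of arrays limits the precision. The error given after ± is that of the scanner software, which rests mostly on a multiplicative error preset at 10% per signal. For a gene with several probes it is the error of their mean, with the probes taken as independent, so it falls with more probes. It is not a measured spread between cultures. A measured technical error comes from 182 probes spotted 10 times, whose differences had a median SD of 0.041 between spots. Of the 20 probes, 19 were well above background on both arrays, and no spot was saturated. Over all 56605 probes, 34481 were well above background for shCtrl and 32781 for shLincU. Calls on the shCtrl array alone therefore have the larger background.

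The sequences show which bases the probes hold. Hspa1a and Hspa1b encode nearly the same protein, so the 2 genes can be told apart only by probes outside the shared part. Their probes are 60 bases long and shared no run of more than 5 bases with each other. The probes start at different transcript positions, and neither was compared with the other gene's transcript. Whether each reads its own gene alone was therefore not tested. By the array's own mm9 annotation the Hspa1a probe lies on the reverse strand at chr17:35106766-35106825, from position 2276 of its transcript. The Hspa1b probe lies on the reverse strand at chr17:35093374-35093405, from position 2664; the array places 32 of its 60 bases on the genome. The first 30 bases of each probe are shown, since these 2 probes carry the largest differences, with those of the 3 Hsph1 probes, which did not read alike.
Hspa1a probe: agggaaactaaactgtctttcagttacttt
Hspa1b probe: taatctaagtaggttaaagatggtgtagtc
Hsph1 probe at position 472: cttcattcagaaggaaaaggagaacccgag
Hsph1 probe at position 2728: caaaaataatcttggtgctgaagctccgca
Hsph1 probe at position 3094: atgaactacactgcttggtcacacgctggg

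Promoters are shown because heat shock elements are what HSF1 binds. The RefSeq promoter table of build GRCm38.p6 held 6 of the 10 genes, with 8 start sites. The 250 bases upstream of each start were searched for 2 facing units of the element, GAANNTTC or TTCNNGAA, each of which reads the same on both strands. A match lay in 7 of the 8 windows, against 12.8% of all 32851 promoter windows. By gene, it lay in a window of all 6, against 14.5% of 27025 genes. Runs of 3 units, GAANNTTCNNGAA or its reverse complement TTCNNGAANNTTC, which contain the shorter motif, were found in 2 of the 8 windows and in 0.466% of all windows. These windows are not independent: Hspd1 and Hspe1 share a matched stretch, as do the 2 Hsph1 starts. A match is a run of letters and not a shown binding site. The stretches around the matches follow, 5′ to 3′ on the gene's strand, with the matched bases in capitals.
Hspa1a, chr17:34972238-34972275, reverse strand: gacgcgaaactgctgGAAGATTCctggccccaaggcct
Hspa1b, chr17:34959320-34959357, reverse strand: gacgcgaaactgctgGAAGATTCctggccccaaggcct
Hspb1, chr5:135887787-135887844, forward strand: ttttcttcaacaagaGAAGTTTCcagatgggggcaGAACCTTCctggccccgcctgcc
Hsph1, chr5:149636347-149636384, reverse strand: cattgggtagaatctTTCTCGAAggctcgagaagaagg
Hspd1, chr1:55088044-55088091, reverse strand: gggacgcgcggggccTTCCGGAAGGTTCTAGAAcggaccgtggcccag
Hspe1, chr1:55088044-55088091, forward strand: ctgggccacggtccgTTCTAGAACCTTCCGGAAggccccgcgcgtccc

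Hspa1a and Hspa1b carried the same match at the same place, with its last base 97 bases upstream of the start. Over the 250 bases upstream their promoters differed at 3 positions, none of them in the match, an identity of 98.8%. Hspd1 and Hspe1 lie head to head, and the 2 lines above are the 2 strands of one stretch between them: a run of 3 overlapping matches serves as upstream sequence for both genes. The whole upstream window of Hspa1a, chr17:34972157-34972406 on the reverse strand, is given for context, since this gene differed most between the arrays.
Hspa1a upstream: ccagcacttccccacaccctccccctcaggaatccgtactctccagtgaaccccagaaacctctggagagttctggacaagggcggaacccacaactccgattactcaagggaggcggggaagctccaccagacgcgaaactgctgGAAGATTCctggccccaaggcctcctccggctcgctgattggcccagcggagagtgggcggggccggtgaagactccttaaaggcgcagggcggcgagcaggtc

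**Figure D1:**
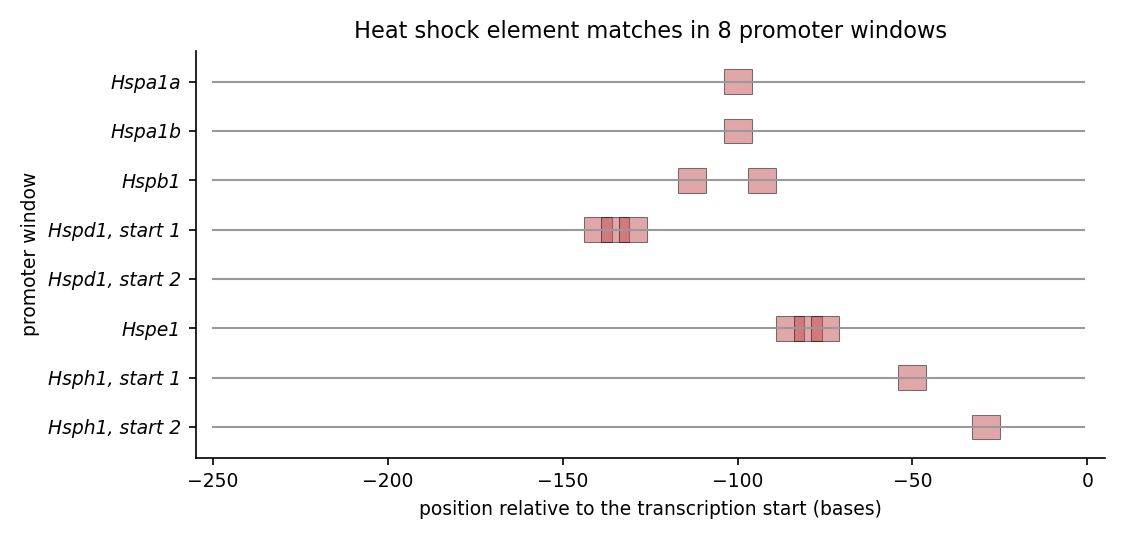
Positions of the 2-unit heat shock element matches (red boxes) in the 250 bases upstream of 8 start sites of 6 genes; the x axis is the distance from the start in bases. Hspa1a and Hspa1b share 1 position, Hspd1 and Hspe1 each have a run of 3 overlapping matches, and 1 of the 2 Hspd1 starts has none.

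The inducible HSP70 genes had the lowest differences of the 10 genes, though Hspa1b, at -0.48, lay within the 5th to 95th percentile of all genes (-0.58 to 0.57). Hspa1a and Hspa1b were lower on the shLincU array, Hspa1a by close to the 2-fold size, while the HSP90 genes and Hspa8 were slightly higher (below 0 with E1A scaling), and the mitochondrial pair went in opposite directions by small amounts. The 2102 genes with the highest levels had a median difference of 0.069 with 34.3% below 0. They include 6 of the 10 genes: Hspa8, both HSP90 genes and Hspe1, all above 0, and Hspb1 and Hspd1, below 0. In the deposited value table Hsp90aa1, Hsp90ab1 and Hspa8 were at 0.022, 0.053 and 0.14. None of the 10 genes was at least 2-fold higher or lower, 0 in each direction, where 1.14% of the 21018 genes measured on both arrays were 2-fold higher and 1.53% 2-fold lower. At the smaller size of 1.5-fold, 1 gene was lower, Hspa1a, and 0 were higher, against 4.84% and 4.78% of all genes. Of the 10 genes, 5 were below and 5 above 0, and their median difference was 0.0093, against 0.020 over all genes. With normexp and without a background filter, 7 of the 10 were below the median of all genes, and the set's median lay -0.13 from it. These counts mark nothing particular to the set.

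Hspa1a encodes the stress-inducible cytosolic HSP70. Its signal was 865 for shCtrl and 296 for shLincU, or 0.47 and -0.51 relative to the 75th percentile. The difference was -0.97 ± 0.21, a signal 1.96-fold higher in shCtrl, and 1.61% of all genes had a lower difference. Hspa1b, its near-identical neighbour, had signals of 667 and 321 and levels of 0.093 and -0.39. The difference was -0.48 ± 0.21, or 1.39-fold, with 7.3% of all genes lower. Both probes thus gave the same direction, on spots far apart on the array: Hspa1a in the lower rows, Hspa1b in the upper rows. The lower rows were less alike between the arrays: 4.09% of their spots differed at least 2-fold, against 1.34% in the upper rows. None of the 14 spots around the Hspa1a spot or the Hspa1b spot differed 2-fold between the arrays. Fibroblast markers, read for remaining feeder cells, had a median difference of -0.21. Of the 19 measured, 10 were below and 9 above 0, and 5 were at least 2-fold lower. Their summed level was 6.50 for shCtrl and 6.49 for shLincU on the log2 scale, a sum in which Sparc alone stood at 5.51 and 5.20. Their part in the Hspa1a and Hspa1b values was not tested. Both genes were well above background on both arrays.

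**Figure D2:**
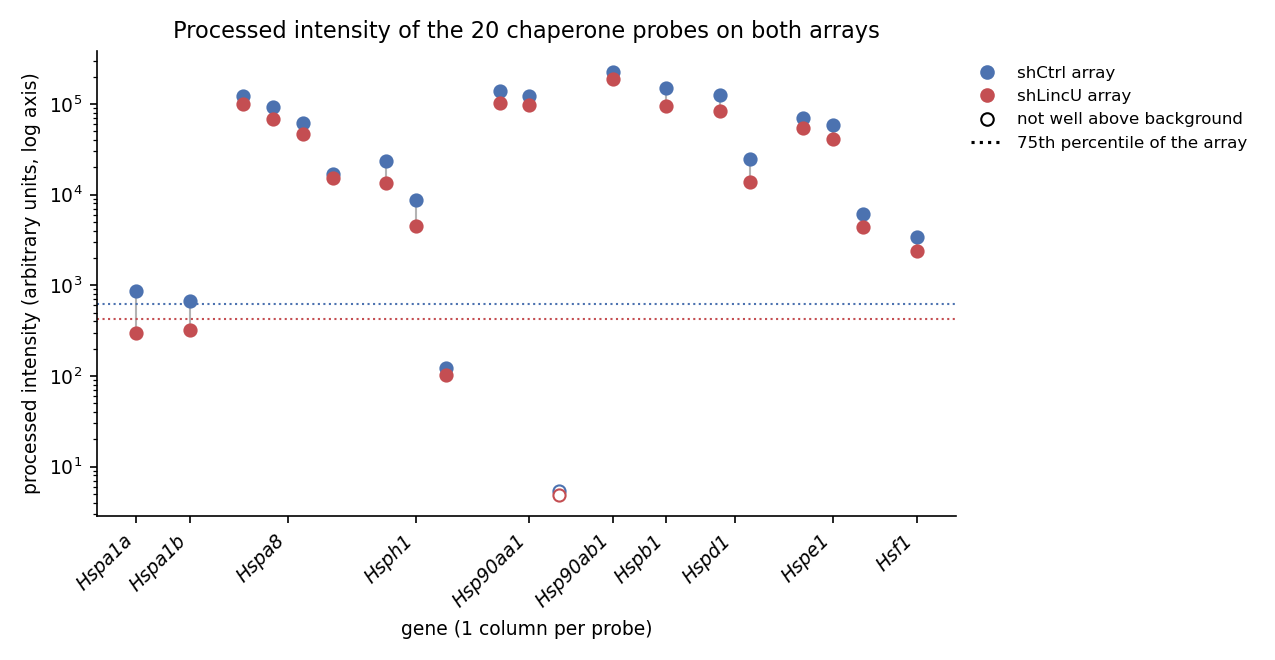
Processed intensity (log axis, arbitrary units) of each of the 20 probes on the shCtrl (blue) and shLincU (red) arrays, 1 array each; open circles are not well above background and dotted lines are the 75th percentile of each array. Hspa1a and Hspa1b change from above the shCtrl line to below the shLincU line, while the other genes keep their place relative to the lines; raw intensities are lower on the shLincU array for all 20 probes.

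Hspa8 encodes HSC70, the HSP70 that growing cells make all the time. Its 4 probes had signals of 120865, 92055, 61771 and 16965 for shCtrl and 98880, 68114, 46749 and 15108 for shLincU. All 4 gave a higher level on the shLincU array, by 0.28, 0.14, 0.17 and 0.41, with a mean of 0.25 ± 0.10 and an SD between probes of 0.12. The direction was opposite to that of Hspa1a and Hspa1b. The means of 3 of the 10 genes, Hspa8, Hspa1a and Hspa1b, lay beyond 1.96 scanner errors from 0, as did 20.9% of all genes. That count depends on the number of probes: the error was 0.10 for Hspa8 on 4 probes and 0.20 for Hsp90ab1 on 1.

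Hsph1 encodes HSP110, which exchanges the nucleotide of HSP70 and is heat-inducible. Its 3 probes did not read alike. The probe at position 472 of the transcript was dim, with 124 and 101, and gave 0.29, whereas the brighter probes at positions 2728 and 3094, with 8706 and 4542 and with 23625 and 13563, gave -0.36 and -0.23. The mean was -0.10 ± 0.12 with an SD between probes of 0.34, so Hsph1 showed no difference larger than the spread between its own probes. With the brightest probe alone it was at -0.23.

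Hsp90aa1, the inducible cytosolic HSP90, and Hsp90ab1, the constitutive one, hold late-folding clients such as kinases and steroid receptors. The 2 Hsp90aa1 probes above background had 140464 and 123498 for shCtrl and 101695 and 98209 for shLincU, and gave 0.11 and 0.24, a mean of 0.18 ± 0.14. The other probe, designed on an expressed sequence tag 2514 bases from the nearest of the others on the genome, was not well above background on either array and entered no value. Hsp90ab1 had the highest difference of the 10 genes: 225398 and 188093, a difference of 0.31 ± 0.20 on 1 probe. The inducible and the constitutive HSP90 thus pointed the same way in sign, unlike the inducible and constitutive HSP70. Neither HSP90 difference lay beyond 1.96 scanner errors from 0, and the contrast between the families was not tested.

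Hspb1 encodes HSP27, a small heat shock protein. Its 1 probe had 148810 and 95167, and the difference was -0.070 ± 0.20, within the scanner error. Hspd1 and Hspe1 encode HSP60 and HSP10 of the mitochondrial folding chamber and share their upstream sequence, shown above. The 2 Hspd1 probes had 125634 and 24719 for shCtrl and 82744 and 13914 for shLincU, and gave -0.028 and -0.25, a mean of -0.14 ± 0.14. The 3 Hspe1 probes had 69686, 58193 and 6138 for shCtrl and 54735, 40960 and 4418 for shLincU. They gave 0.23, 0.068 and 0.10, a mean of 0.13 ± 0.12; the spot of the probe at 0.068 lay beside 2 spots that were 2-fold lower. The SDs between probes were 0.16 and 0.084, and the difference between the partners was not tested. Hspd1, Hspe1 and Hspa8 have near-identical processed copies in the genome, and whether their probes also read such copies was not tested.

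Hsf1, the factor that drives the heat shock response, had 3370 and 2406 on 1 probe, levels of 2.43 and 2.52 and a difference of 0.089 ± 0.20. Its transcript level was thus within the scanner error on the 2 arrays. HSF1 is regulated mostly at the level of the protein, which the arrays do not measure.

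**Figure D3:**
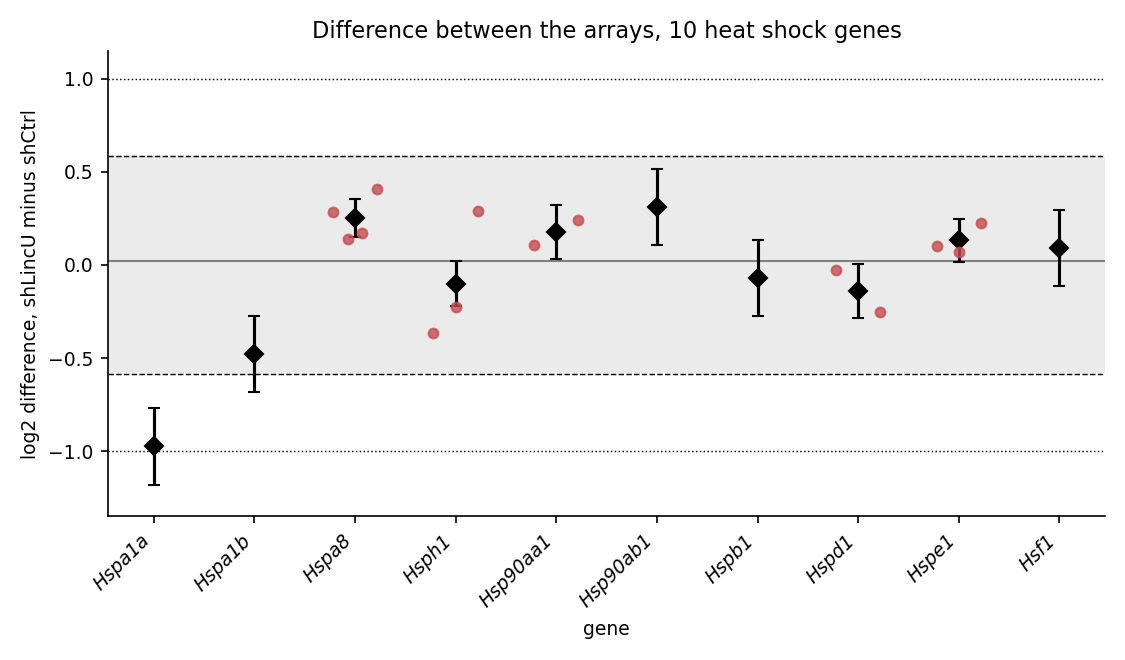
Log2 difference between the arrays (shLincU minus shCtrl) for the 10 genes: diamonds are gene means with the scanner error, red points are single probes of genes with several. The grey band spans the 5th to 95th percentile of all 21018 genes (-0.58 to 0.57), the grey line their median, dashed and dotted lines 1.5-fold and 2-fold; of the 10 genes, Hspa1a alone lies outside the band.

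The wider chaperone network was read from 9 lists with 117 genes, of which 111 were measured on both arrays. One of them was at least 2-fold lower and 0 at least 2-fold higher; at 1.5-fold, 3 were lower and 1 higher. Over all genes the shares were 1.53% and 1.14% at 2-fold and 4.84% and 4.78% at 1.5-fold. The median of the 111 genes was -0.0040. Named genes are the 3 with the largest difference of each list and 8 chosen for their role.

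Other heat-inducible genes spread to both sides of 0. Of 20 genes listed as such, 11 were below and 9 above 0, with a median of -0.013. The list includes Hspa1l, the testis HSP70 gene, which was dim and at 0.024 with an error of 0.41. Dnajb1, the J-domain partner of inducible HSP70, had signals of 15803 and 9469 and was at -0.16. Bag3, which releases clients from HSP70 and is heat-inducible, had 4424 and 2465 and was at -0.27. Dnaja4 was at -0.70 on 1 probe, the 1 gene of the 20 past 1.5-fold, and Serpinh1, the collagen chaperone, was at 0.44. Serpinh1 was at 1.82, past the 2-fold size, without a background filter or with the other detection flag. Dnaja4 was dim, and with normexp background correction it was at -0.27.

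Among the J-domain partners that deliver clients to HSP70, 21 of 27 were below 0, where 46.9% of all genes were, but most by little: the median was -0.092 and 2 were at least 1.5-fold lower. These were Dnaja4 and Dnajc3, the latter an ER protein at -0.67, and Dnajc5 of synaptic vesicles was highest at 0.34. With normexp Dnajc3 was at -0.41, so neither gene was then 1.5-fold lower, and Dnajc5 was at 0.75 in the lower rows alone. Of the HSP90 family and its co-chaperones, 15 of 19 were above 0, with a median of 0.12. The list is bright, with a median level of 3.56 for shCtrl, and the 2102 brightest genes had a median difference of 0.069. How many of the 19 are among those 2102 was not counted, and the part of brightness in the list's median was not tested. The highest were Tomm34 at 0.55, the kinase-loading factor Cdc37 at 0.40 and Unc45a, a myosin chaperone, at 0.39. Stip1, which joins HSP70 to HSP90, was at 0.062, and Hsp90b1, the HSP90 of the ER, at 0.0095.

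Other members of the HSP70 family split 5 against 5 with a median of -0.016. Hspa5, the HSP70 of the ER, was at -0.14, Hspa9, that of mitochondria, at 0.079, and Hspa4, a relative of HSP110, at 0.039. The widest were Hspa12a at -0.46, Hspa13 at -0.36 and Hyou1 at 0.31. Of the 12 nucleotide exchange factors and other partners of HSP70, 7 were above 0. Hspbp1 was at 0.45 and Bag2 at -0.32, though the 2 Bag2 probes differed, at -0.85 and 0.21.

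The cytosolic chaperonin and prefoldin genes, which fold actin and tubulin, had a median of 0.083 with 10 of 15 above 0; Pfdn4 was at -0.42, Cct4 at -0.28 (-0.76 in the lower rows alone) and Pfdn1 at 0.29. Mitochondrial quality control genes split 7 against 7 around a median of 0.0057, with Clpx at -0.32, Clpp at -0.28 and Dnaja3 at -0.26. Dnaja3 was at -0.67 without a background filter or with the other flag. Of 7 other small heat shock proteins measured, Hspb6 was the only one past 1.5-fold, at 0.73. It turned to -0.088 when dimmer probes were let in and to -0.17 with E1A scaling. Cryaa and Hspb9 were at 0.30 and 0.31. Hspb7 was well above background on the shCtrl array alone.

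Of the HSF factors and their partners, 5 of 8 were measured. Hsf2, a relative of HSF1, had signals of 1714 and 1584 and was at 0.46, or -0.43 with E1A scaling. Hsbp1, a binding partner of HSF1, was at -0.46. Hsf5 was the 1 related gene past 2-fold, at -1.10, but dim, with 158 and 49.2, and at -0.48 with normexp background correction. Hsf4 was well above background on the shCtrl array alone, the array with more such probes.

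**Figure D4:**
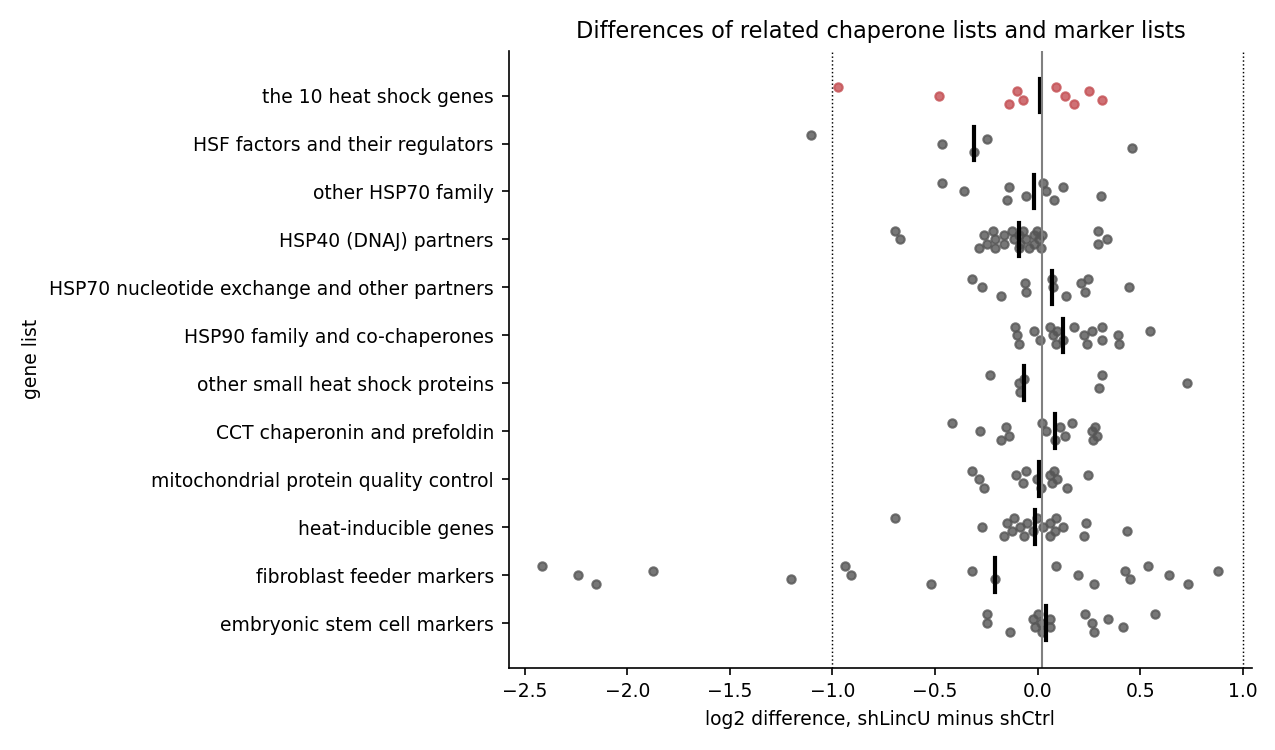
Log2 difference between the arrays (x axis, shLincU minus shCtrl) for each measured gene of the 10 heat shock genes (red), 9 related chaperone lists and 2 marker lists; black bars are list medians, the grey line the median of all genes and dotted lines 2-fold. Chaperone genes lie mostly within 0.5 of 0, while fibroblast markers range from -2.41 to 0.88.

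Markers were read to check the cells. All 16 markers of embryonic stem cells were well above background on both arrays, with a median difference of 0.039 and 0 past 1.5-fold. The widest were Dnmt3b at 0.57, Lin28a at 0.41 and Sall4 at 0.34. Fibroblast markers, of the kind of cell used as feeder, were also present: 19 of 22 were measured, with levels from -3.71 to 5.51 for shCtrl and from -3.69 to 5.20 for shLincU. Col6a2 and Pdgfra were well above background for shCtrl alone, and Lum for shLincU alone. Of the 19, 5 were at least 2-fold lower and 0 higher, against 1.53% and 1.14% of all genes. At 1.5-fold, 7 were lower and 3 higher, against 4.84% and 4.78%. Dcn, Ccl2 and Lox were at -2.41, -2.24 and -2.15, and Tagln, Col5a1 and Col3a1 at 0.88, 0.73 and 0.64. The markers did not move together: 10 were below and 9 above 0. In bulk RNA, fewer cells of a type and less RNA per cell cannot be told apart.

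Hspa1a lay between -1.01 and -0.85 and Hspa1b between -0.52 and -0.40 in the 12 alternatives that gave a value without E1A scaling. Relative to the median of all genes, which takes out any common shift, both were below it in 14 of 14 settings. Each has 1 probe on 1 spot, so the filter, flag, probe, outlier, row and neighbour settings left its difference unchanged or dropped it. Median centring and E1A scaling shift all genes alike and cancel against that median. Hspa8, Hsp90aa1 and Hsp90ab1 were above the median of all genes in all settings that read them, and Hspb1 and Hspd1 below it. Hsp90aa1 and Hsp90ab1 came as near as 0.014 and 0.044 to the median of all genes, in both cases with the deposited value table. Hspe1 and Hsf1 each changed side in 2 of 14 settings and Hsph1 in 1 of 15. Scaled to 8 E1A spike-in controls, all genes moved by -0.89, so that all 10 genes were below 0 there. Hspa8, both HSP90 genes, Hspe1 and Hsf1 changed sign by this. Hspa1a, Hspa1b, Hspb1 and Hspd1 were below 0 in every setting that read them. With 1 array per group, no direction against a fixed amount of RNA can be given.

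**Figure D5:**
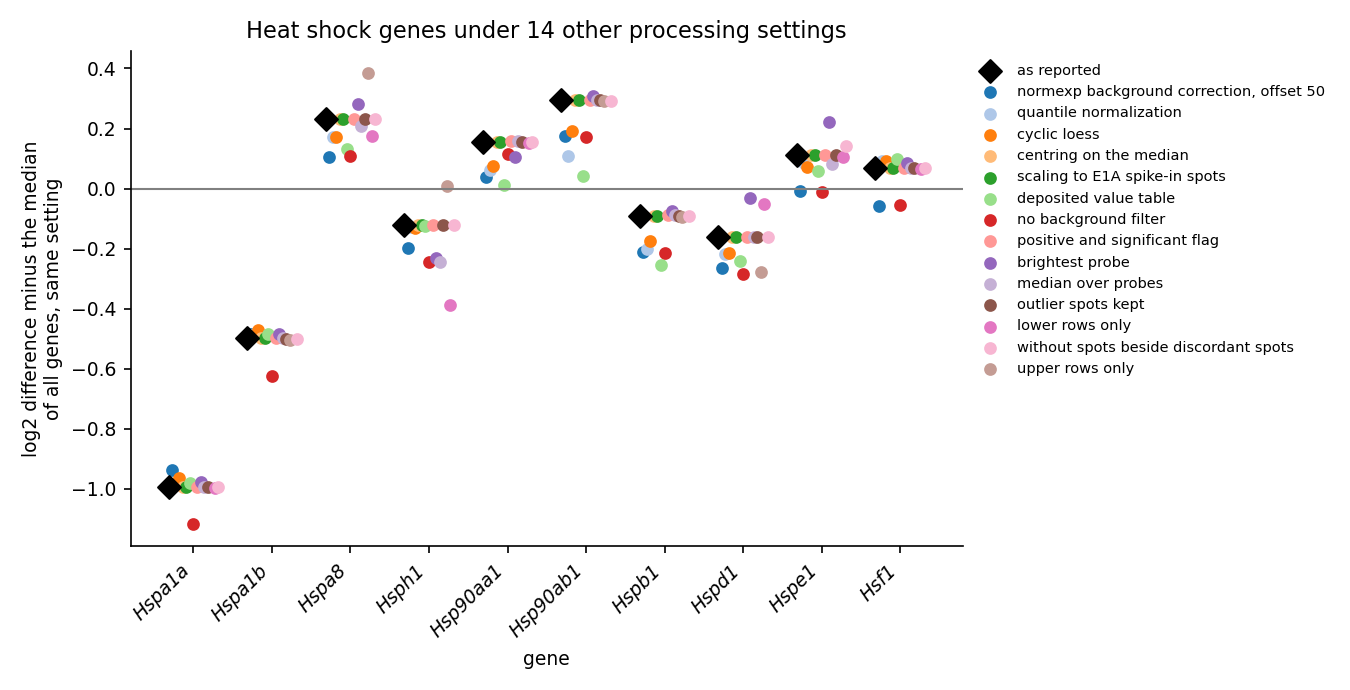
Log2 difference of each of the 10 genes minus the median of all genes under the same setting, for the reported setting (black diamonds) and 14 alternatives (coloured points). Hspa1a and Hspa1b stay below the other 8 genes in every setting that read them, and Hspe1, Hsf1 and Hsph1 cross the line at 0.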

How the data were processed

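Cy3-labelled RNA was read on 2 one-colour Agilent arrays, 1 per group, with 1 slide barcode per the file headers. Deposited scanner files hold each spot's intensity; the submitters' processing notes name Agilent Feature Extraction, version 10.7.1.1. Per the file headers the processed intensity had spatial and multiplicative detrending. Other deposited columns are flags of 0 or 1. The deposited value table holds log2 values, median 5.65 in each column, with a normalization that no source used here states; over 56605 matched probes its slope on log2 of the scanner signal, among probes well above background, was 1.00 on both arrays, so scale and direction are known and the centring is not.

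Here log2 of the processed intensity was taken minus the array's 75th percentile over non-control probes. Outlier spots (98 and 138) were left out, spots averaged per probe, and probes well above background on both arrays averaged per gene. Where a gene was well above background on 1 array only, no value is given. Probes were named through RefSeq (GRCm38.p6, names only): 32989 by accession, 10228 by symbol, 519 by synonym, and 12869 kept the array's name. Genes were counted by fixed sizes of 2-fold and 1.5-fold. The genes, lists and rules were chosen with earlier results of these data known. All 10 genes are named, with 3 per related list and 8 fixed genes. The calculation was tested on simulated data. Discordant spots differed at least 2-fold; a spot lay beside them when at least 2 of its 14 neighbours did so in 1 direction. The 384 rows were split at the middle.

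Python 3.11.15, numpy 2.4.6, pandas 2.3.3, R 4.3.3 and limma 3.58.1 were used. Alternatives were normexp background correction (offset 50), quantile and cyclic loess normalization, median centring, E1A scaling, the value table, no background filter or another flag, the brightest or median probe, outliers kept, upper or lower rows, and leaving out spots beside discordant spots.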

Additional observations from a re-analysis of the deposited data

How the results depend on the processing

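No paired analysis was possible because a group is 1 array, so none could be left out either. The median of the 10 genes was -0.88 and 9 of them were at least 1.5-fold lower and 3 at least 2-fold lower with E1A scaling, which moves all genes alike. With centring on the median, Hspa1a passed the 2-fold size at -1.01, so 1 gene was 2-fold lower, against 1.68% of all genes. The upper rows do not hold the Hspa1a spot, and 0 of the 6 genes read there were 1.5-fold lower, against 4.04% of all genes there. Hspb6 turned to -0.17 with E1A scaling and to -0.088 without a background filter and with the other detection flag; the cause was not tested. Over 47 named genes and 14 alternatives, 541 of 624 values moved by no more than the scanner error and 80 moved by more. The other 3 are the Hspb6 values above. Sign changes of genes under 1.5-fold are not counted apart. Of the 80, 46 came from E1A scaling, which moves all genes alike. For a gene with 1 probe on 1 spot, the probe and row settings could not change the value. The 541 is therefore no measure of how stable the values are. Shares of all genes moved too. At 1.5-fold, 2.73% were higher and 1.87% lower with normexp, 8.75% and 7.95% without a background filter, 9.08% and 8.57% with the other flag, and 0.40% and 84.4% with E1A scaling. At 2-fold these shares were 0.45% and 0.51%, 3.96% and 3.6%, 3.59% and 3.40%, and 0.20% and 32.3%; in the upper rows, 0.67% were higher. Among dim genes, Hsf5 was at -0.48, Dcn at -1.41 and Lox at -1.31 with normexp.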

Other observations

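Hspa1a and Hspa1b lie side by side on chromosome 17, and the genes around them were read after the values of the pair had been seen. Of the 5 nearest measured protein-coding genes on each side, 5 were below and 5 above 0, with a median of -0.042. The testis HSP70 gene Hspa1l, the next gene beside Hspa1a, was at 0.024 but dim, with an error of 0.41, and Lsm2, an RNA-binding protein gene, was at 0.0049 over 3 probes. On the side of Hspa1b, the sialidase gene Neu1 was at -0.10. The range ran from Sapcd1 at -0.45 to Ehmt2, a histone H3 methyltransferase gene, at 0.53, and none of the 10 was lower than Hspa1b at -0.48.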
